A study of Mus musculus with 9 samples.

Results

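The genes described here are members of the BCL2 family, which decides whether a cell under stress survives or dies through its mitochondria, measured in thymic invariant natural killer T (iNKT) cells with and without the histone demethylase Utx. The list holds 10 genes: the prosurvival genes Bcl2, Bcl2l1 and Mcl1, the BH3-only genes Bcl2l11, Bbc3, Pmaip1, Bid and Bad, and the effectors Bax and Bak1. Members were all probe sets that the array's annotation assigns to 1 gene with a listed symbol. There were 29 such probe sets for 9 of the 10 genes, among 34945 one-gene probe sets for 18193 genes. Bax had no one-gene probe set in the annotation used and is not analysed here. A probe set is a group of short probes whose signal is summarised as 1 level, given on the log2 scale.

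RNA of sorted thymic iNKT cells, from mice 8 to 12 weeks old, was hybridised to 9 arrays, 5 labelled Utx wildtype (WT1 to WT5) and 4 labelled Utx knock out (KO1 to KO4), numbered as in the sample titles. The labels call these biological replicates of sex- and age-matched animals and give no treatment, strain, promoter or Cre line, and no part of the gene that was removed. The labels do not say whether a sample pools several mice, and p-values measure the spread between these samples. The titles name 3 batches: batch 1 holds WT1 and KO1, batch 2 holds WT2, KO2, KO3 and KO4, and batch 3 holds WT3, WT4 and WT5. The comparison asks how levels of survival and death genes differ between knockout and wildtype iNKT cells.

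In this pathway, Bcl-2, Bcl-xL (the product of Bcl2l1) and Mcl-1 keep the effectors Bax and Bak from opening pores in the outer mitochondrial membrane. BH3-only proteins, which share a single short helix with the rest of the family, block the prosurvival proteins or act on the effectors directly. Once pores open, cytochrome c escapes and Apaf-1 assembles with it into the complex that activates caspases. In the thymus, Bcl-xL is known to keep double-positive thymocytes alive, Bcl-2 is known from more mature T cells, and Bim (the product of Bcl2l11) removes cells that bind self too strongly.

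Median levels per array lay between 5.97 and 6.09 (log2), and interquartile ranges between 3.45 and 3.84 on wildtype arrays and between 3.80 and 4.29 on knockout arrays. Kdm6a, which encodes Utx, differed by -0.01 on its brightest probe set (log2, knockout minus wildtype; limma adjusted p = 0.977, over all probe sets), and on the other 3 by -0.46, -0.23 and 0.52. The labels do not give the deleted part, so these levels do not check them.

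In knockout cells Pmaip1, which encodes the BH3-only protein Noxa, and Bcl2l1, which encodes Bcl-xL, rose. Pmaip1 was 3.25-fold and Bcl2l1 2.19-fold higher. The other 7 measured members did not pass the test. Among them Bad had a difference of 0.87 (log2), Bbc3 of -0.50, Bid of 0.33, Bcl2 of -0.22, Bcl2l11 of -0.21, Bak1 of 0.11 and Mcl1 of 0.04. Each gene was tested by its probe set of highest mean level in a limma fit over 14524 genes with batch as a factor. Batch 3 holds no knockout array, so in this fit the difference rests on batches 1 and 2, with WT1 and WT2 as wildtype. WT3, WT4 and WT5 enter the estimate of the spread and not the difference. A gene was called at a Benjamini-Hochberg adjusted p under 0.05. Thus 2 of 9 members were higher and 0 lower, beside 11.3% of all genes called, 7.88% higher and 3.37% lower. Of all calls 70.0% were higher, a share that was 58.2% after a further quantile normalization. At an unadjusted p under 0.05, 3 of the 9 passed in this fit, Pmaip1, Bcl2l1 and Bad, beside 30.8% of all genes. The count and its direction depended on how batch entered the fit: with no batch term 3 members were called higher and 2 lower, beside 43.7% of all genes called, and with batch as a random block 4 higher and 3 lower, beside 69.2%. The median difference over the 9 members was 0.11, the same to 2 decimals as the 0.11 over all genes tested. Over all 29 probe sets, 2 were called, both higher, beside 6.40% of all probe sets, 3.73% higher and 2.67% lower. At an unadjusted p under 0.05, 6 of the 29 passed, beside 28.2% of all probe sets. In these bulk samples a change in the share of cells that express a gene and a change in the RNA per cell cannot be told apart.

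**Figure D1:**
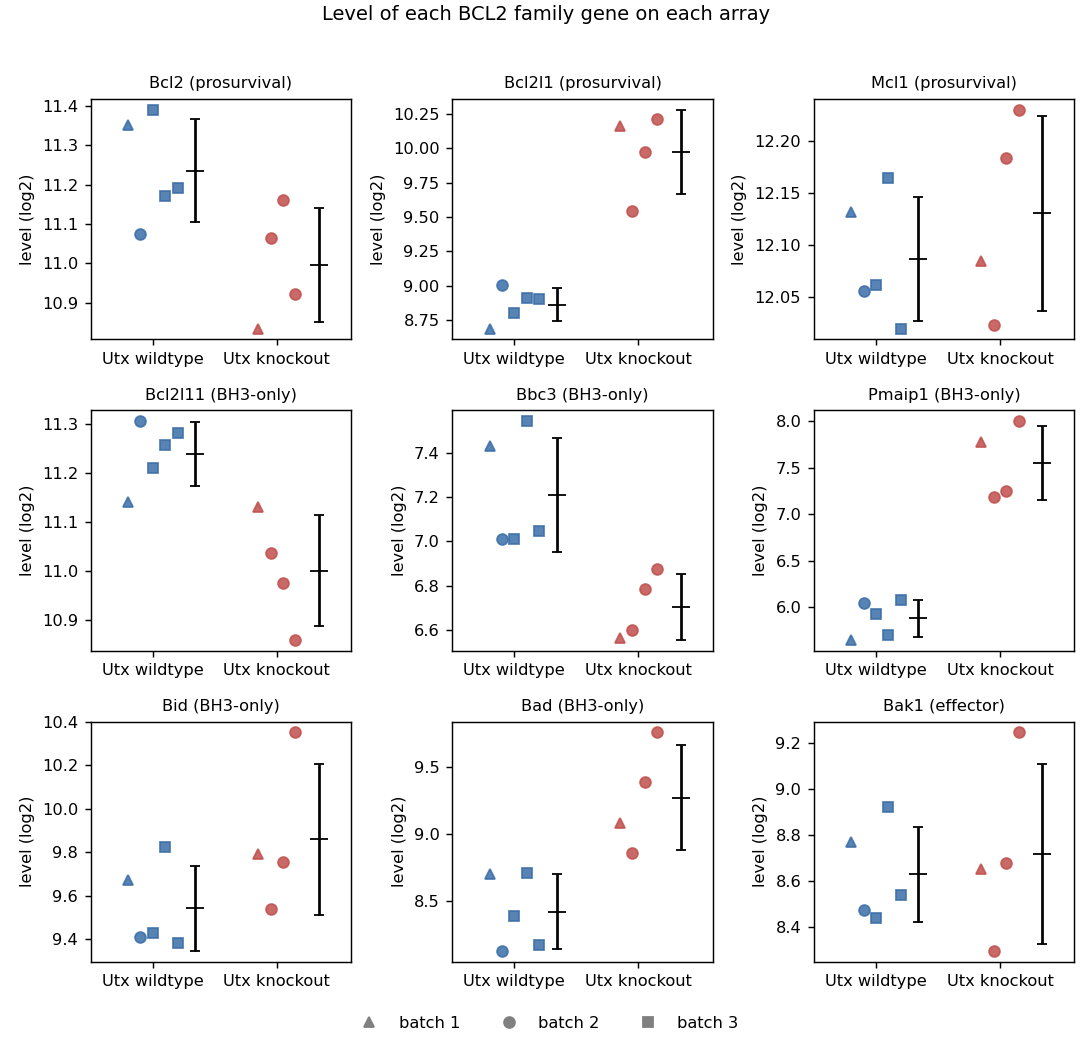
Each panel plots the level (log2) of 1 BCL2 family gene, by its probe set of highest mean, on the 5 Utx wildtype (blue) and 4 Utx knockout (red) arrays, with the marker shape giving the batch. The black bar is the mean with its SD, and the vertical scale differs between panels. Knockout arrays lie above all wildtype arrays for Bcl2l1, Pmaip1 and Bad, below them for Bcl2l11 and Bbc3, and overlap them for the other 4 genes.

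Among the prosurvival genes, Bcl2l1 stood apart. On its probe set of highest level (1420888_at), WT1 to WT5 read 8.69, 9.005, 8.80, 8.91 and 8.90 (log2), and KO1 to KO4 read 10.16, 9.54, 9.97 and 10.22. All 4 knockout arrays were above all 5 wildtype arrays, with 0.54 between the nearest, and KO2 was the lowest of the knockout arrays. The mean was 8.86 ± 0.12 in wildtype (SD, n = 5) and 9.97 ± 0.31 in knockout cells (SD, n = 4), and the fitted difference was 1.13 (log2, SE 0.22, adjusted p = 0.0179 by limma). It was 1.47 in batch 1 and 0.90 in batch 2. Without WT1 or without KO1, which leaves the difference within batch 2, the call ended (0.90, adjusted p = 0.0647 and 0.0643), and it ended without the 3 wildtype arrays of batch 3 (1.13, adjusted p = 0.0799) and for the mean of all probe sets of the gene (0.72, adjusted p = 0.124).

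The other 3 probe sets of Bcl2l1 also had positive differences, of 0.76, 0.68 and 0.31, and none passed (adjusted p 0.33 to 0.412 over all probe sets, limma). Bcl2l1 is known to be spliced into a long form that protects cells and a short form that promotes death, and the annotation used does not say which form a probe set reads. On 1426191_a_at the wildtype arrays spread from 6.02 to 7.598 and the knockout arrays from 6.94 to 8.14. On 1420887_a_at the ranges were 6.01 to 7.12 and 6.85 to 7.95. These probe sets differed by 0.02 and -0.14 in batch 2 and by 1.86 and 1.91 in batch 1, so that they did not show the difference of 1420888_at within batch 2. The fourth, 1426050_at, had a mean of 3.92, under the filter on low levels that genes had to pass (4.54).

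Bcl2, the founding member of the family, was measured by 5 probe sets, and all 5 had lower mean levels in knockout cells with no call. The differences ran from -0.67 to -0.22 (log2; adjusted p 0.191 to 0.568 over all probe sets, limma). On the probe set of highest level (1457687_at), WT1 to WT5 read 11.35, 11.07, 11.39, 11.17 and 11.19, and KO1 to KO4 read 10.83, 11.07, 11.16 and 10.92. KO3 lay within the wildtype range, KO2 lay just under WT2, the lowest wildtype array, and KO1 and KO4 were further below. The fitted difference was -0.22 (SE 0.17, 95% interval -0.62 to 0.18, adjusted p = 0.419). On 1437122_at, WT1 to WT5 read 10.08, 9.93, 10.03, 10.02 and 10.11, and KO1 to KO4 read 9.62, 9.87, 9.40 and 9.56. There every knockout array was below every wildtype array, by 0.07 at the nearest, with a difference of -0.38 (SE 0.17, adjusted p = 0.191 over all probe sets).

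The groups were also apart on 1440770_at, by 0.01, and overlapped on the other 3 probe sets of Bcl2. Within batches, the 4 probe sets other than 1443837_x_at had negative differences in batch 1 (-0.53 to -0.37) and in batch 2 (-0.33 to -0.02). The probe set 1443837_x_at varied widely, from 6.92 to 9.33 in wildtype and from 6.34 to 8.02 in knockout cells, and differed by -3.00 in batch 1 and 0.88 in batch 2. The 5 negative signs held after a further quantile normalization and after each array was centred on its median. With no batch term 3 of the 5 were called lower, with batch as a random block 5 of 5, and without WT2 1 of 5. In the same order, 43.7%, 69.2% and 6.64% of all genes were called in either direction, with 2304, 3879 and 418 genes lower. These are shares of genes, and the share over all probe sets was not counted under these settings. In the main fit 6.40% of all probe sets were called, beside 11.3% of all genes. The gene itself, by its probe set of highest level, was called lower with the random block (-0.25, adjusted p = 0.00313 by limma) and not with no batch term (-0.24, adjusted p = 0.0873). The random block fit took arrays of a batch as negatively correlated (-0.32), and its SE for Bcl2 was 0.058, against 0.17 in the main fit. Its calls are therefore not read as support for a fall of Bcl2. The intervals of the 4 probe sets of smaller spread reach from -0.80 to 0.18, which leaves room for a fall or for little difference.

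To set the prosurvival pair Bcl2l1 and Bcl2 side by side, the 250 bases before the most upstream start that RefSeq lists for each are shown (GRCm38.p6, 5′ to 3′ on the strand of the gene). RefSeq promoter windows matched 9 of the 10 members. The window of Bcl2l1 is chr2:152831729-152831978 on the minus strand, and that of Bcl2 is chr1:106714291-106714540 on the minus strand. Capitals mark matches, on either strand, to 5 short motifs: the E-box CANNTG, the core ROR motif AGGTCA, the Foxo core GTAAACA, the STAT palindrome TTCNNNGAA and the GC box GGGCGG.
Bcl2l1: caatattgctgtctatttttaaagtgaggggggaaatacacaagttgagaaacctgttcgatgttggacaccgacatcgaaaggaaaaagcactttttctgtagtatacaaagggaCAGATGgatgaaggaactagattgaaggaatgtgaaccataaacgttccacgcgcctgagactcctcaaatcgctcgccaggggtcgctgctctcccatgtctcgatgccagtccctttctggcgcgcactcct
Bcl2: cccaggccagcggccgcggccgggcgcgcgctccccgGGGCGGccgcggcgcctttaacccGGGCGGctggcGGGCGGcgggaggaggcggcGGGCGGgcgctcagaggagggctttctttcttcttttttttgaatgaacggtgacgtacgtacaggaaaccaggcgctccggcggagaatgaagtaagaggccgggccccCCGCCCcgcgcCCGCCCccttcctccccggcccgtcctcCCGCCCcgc
The Bcl2l1 window held 1 E-box and no GC box, 12 CpG dinucleotides and 47.6% G and C. The Bcl2 window held 7 GC boxes, 36 CpG and 74.8% G and C. Neither held a match to the ROR, Foxo or STAT motif, and matches of different motifs did not overlap in either. Among 32851 windows of the same length, 66.2% held an E-box, 32.7% a GC box, 14.0% the ROR core, 7.02% the STAT palindrome and 3.17% the Foxo core, and the median number of CpG was 6.0. RefSeq lists 3 starts for Bcl2l1 and 1 for Bcl2, and which start these cells use was not measured. A match is a description of the letters, not a bound site.

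Mcl1, which encodes a prosurvival protein of very short life, showed the smallest difference of the 9 genes. Its 6 probe sets had differences between -0.09 and 0.06 (log2; 3 positive, 3 negative), with adjusted p 0.735 to 0.988 over all probe sets. On the probe set of highest level (1437527_x_at), WT1 to WT5 read 12.13, 12.06, 12.06, 12.16 and 12.02, and KO1 to KO4 read 12.08, 12.02, 12.18 and 12.23. The groups overlapped, with KO3 and KO4 above all wildtype arrays, and the 95% interval of the difference was -0.30 to 0.37.

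**Figure D2:**
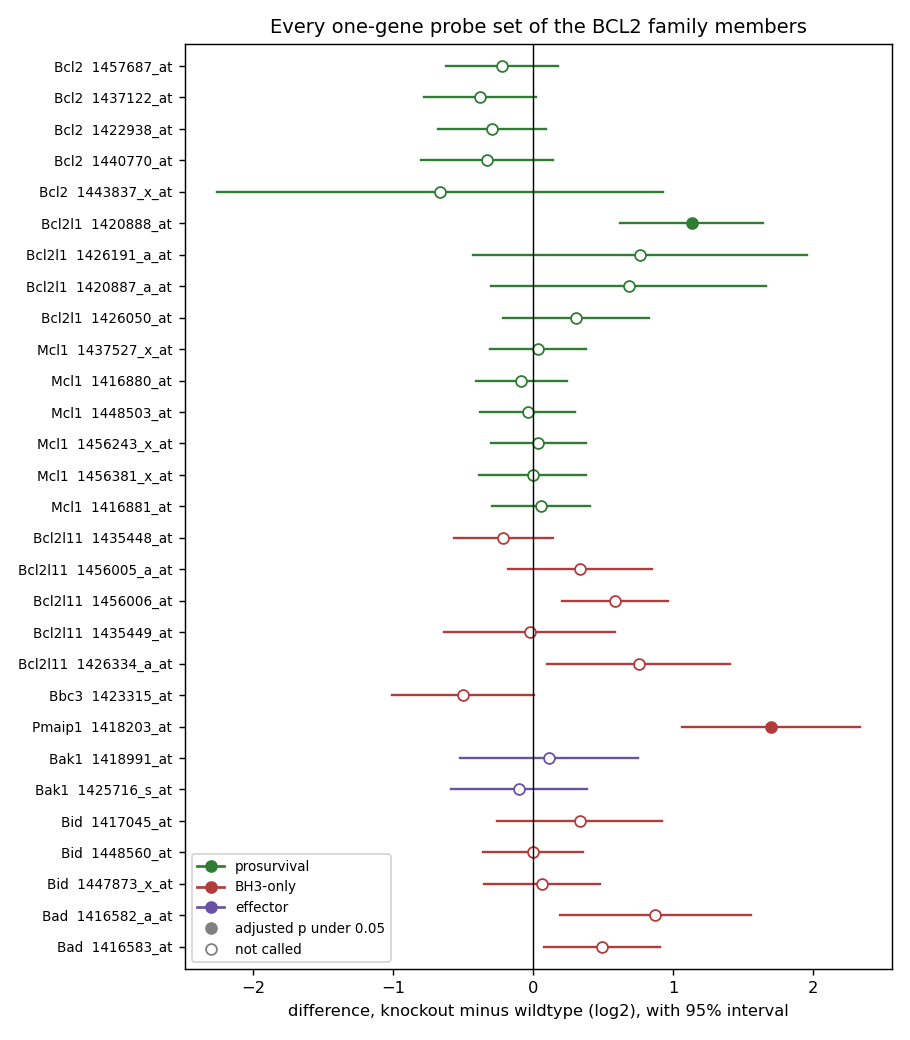
Each row is 1 of the 29 one-gene probe sets of the 9 measured genes, and each point its fitted difference (log2, knockout minus wildtype) with a 95% interval, coloured by the role of the gene. Filled points mark the 2 probe sets with an adjusted p under 0.05 over all probe sets, 1 of Pmaip1 and 1 of Bcl2l1, and the 6 probe sets of Mcl1 lie within 0.09 of 0.

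Among the BH3-only genes, Pmaip1 had the largest difference of the family. Noxa, its product, binds Mcl-1 above all and is known as a p53-induced protein. WT1 to WT5 read 5.65, 6.05, 5.93, 5.70 and 6.08 (log2), and KO1 to KO4 read 7.77, 7.18, 7.24 and 8.00. The groups were 1.09 apart at the nearest, with KO1 and KO4 higher than KO2 and KO3. The mean rose from 5.88 ± 0.20 (SD, n = 5) to 7.55 ± 0.40 (n = 4), a fitted difference of 1.70 (log2, SE 0.28, adjusted p = 0.00988 by limma). It was 2.12 in batch 1 and 1.42 in batch 2. The call held in each of the 9 fits without 1 array (adjusted p 0.00587 to 0.0364) and ended without the 3 wildtype arrays of batch 3 (1.70, adjusted p = 0.0509). The wildtype mean lay below the median level of every array and above the filter on low levels (4.54, the 25th percentile over probe sets), and whether it was above background was not measured, so the size of the fold rests on that low level. Pmaip1 had a single one-gene probe set, so no further probe set bears on its rise.

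Bad, which binds Bcl-2 and Bcl-xL and is held inactive by phosphorylation, had higher levels in knockout cells on both of its probe sets, with no call. On 1416582_a_at, WT1 to WT5 read 8.70, 8.13, 8.39, 8.71 and 8.17, and KO1 to KO4 read 9.08, 8.86, 9.38 and 9.75. Every knockout array was above every wildtype array, by 0.15 at the nearest, and KO4 was highest. The mean was 8.42 ± 0.28 (SD, n = 5) against 9.27 ± 0.39 (n = 4), with a difference of 0.87 (log2, SE 0.30, 95% interval 0.19 to 1.56, adjusted p = 0.0932 by limma). It was 0.38 in batch 1 and 1.203 in batch 2, and 0.60 after a further quantile normalization. Without WT2, the only wildtype array of batch 2, it was 0.38 (adjusted p = 0.828). With no batch term Bad was called (0.85, adjusted p = 0.00723). On 1416583_at the wildtype arrays lay between 7.59 and 7.96 and the knockout arrays between 8.08 and 8.36, a difference of 0.49 (adjusted p = 0.123 over all probe sets).

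Bbc3, which encodes Puma, a p53-induced protein that binds all prosurvival members, had the opposite sign with no call. WT1 to WT5 read 7.43, 7.01, 7.01, 7.54 and 7.05, and KO1 to KO4 read 6.56, 6.60, 6.78 and 6.87. The groups did not overlap and were 0.14 apart at the nearest. The mean was 7.21 ± 0.26 (SD, n = 5) against 6.70 ± 0.15 (n = 4), with a difference of -0.50 (log2, SE 0.22, 95% interval -1.01 to 0.004, adjusted p = 0.165 by limma). It was -0.87 in batch 1 and -0.26 in batch 2, and it was called with no batch term (-0.50, adjusted p = 0.0167). Pmaip1 and Bbc3, both known as p53-induced, had differences of opposite sign, of which only that of Pmaip1 passed. The interval of Bbc3 reached 0.004, so its sign is not settled. The part of p53 in either value was not tested.

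For Bad and Bbc3, whose probe sets lay apart by genotype in 1 direction, the same 250 bases are shown, with the same motifs in capitals. The window of Bad is chr19:6941611-6941860 on the plus strand, and that of Bbc3 is chr7:16309333-16309582 on the plus strand (GRCm38.p6, RefSeq).
Bad: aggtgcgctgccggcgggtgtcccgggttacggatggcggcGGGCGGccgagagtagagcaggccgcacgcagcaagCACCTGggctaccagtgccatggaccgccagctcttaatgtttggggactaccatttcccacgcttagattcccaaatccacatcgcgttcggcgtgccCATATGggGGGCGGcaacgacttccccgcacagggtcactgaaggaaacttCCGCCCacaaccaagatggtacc
Bbc3: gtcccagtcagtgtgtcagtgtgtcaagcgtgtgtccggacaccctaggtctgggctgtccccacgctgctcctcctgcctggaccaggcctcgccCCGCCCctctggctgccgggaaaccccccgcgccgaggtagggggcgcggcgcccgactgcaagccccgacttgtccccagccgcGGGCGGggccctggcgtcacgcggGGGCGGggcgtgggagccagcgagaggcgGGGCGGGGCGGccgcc
The Bad window held 2 E-boxes, 3 GC boxes and 21 CpG. The Bbc3 window held 5 GC boxes, 27 CpG and no E-box. Neither held the ROR, Foxo or STAT motif, and matches of different motifs did not overlap. RefSeq lists 2 starts for Bad and 3 for Bbc3.

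Bcl2l11, which encodes Bim, was measured by 5 probe sets with differences of both signs, and none passed. On the probe set of highest level (1435448_at), WT1 to WT5 read 11.14, 11.31, 11.21, 11.26 and 11.28, and KO1 to KO4 read 11.13, 11.04, 10.98 and 10.86. All knockout arrays were below all wildtype arrays, though by 0.01 between KO1 and WT1, and the difference was -0.21 (log2, SE 0.15, adjusted p = 0.371 by limma), with -0.01 in batch 1 and -0.35 in batch 2. With no batch term it was called lower (-0.24, adjusted p = 0.0467). On 1456006_at the order was the other way: WT1 to WT5 read 6.54, 6.46, 6.37, 6.67 and 6.68, and KO1 to KO4 read 7.07, 7.12, 6.94 and 7.18. That difference was 0.58 (SE 0.17, adjusted p = 0.0701 over all probe sets), with 0.53 in batch 1 and 0.62 in batch 2. The remaining 3 had differences of 0.34, -0.02 and 0.75 (adjusted p 0.132 to 0.963), the last on a probe set with a mean of 4.57, just above that filter level. The mean of all 5 gave 0.29 (adjusted p = 0.276), so the sign of the gene depended on the probe set. Bim is known to occur in several spliced forms, and the annotation used does not tie a probe set to one of them.

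Bid, which caspase-8 cleaves to carry a death receptor signal to mitochondria, overlapped between the groups on its 3 probe sets. On 1417045_at, WT1 to WT5 read 9.67, 9.41, 9.42, 9.82 and 9.38, and KO1 to KO4 read 9.79, 9.54, 9.76 and 10.35. KO4 was the highest array and the other 3 knockout arrays lay within the wildtype range. The difference was 0.33 (log2, SE 0.26, 95% interval -0.26 to 0.92, adjusted p = 0.409 by limma). The other 2 probe sets had differences of -0.002 and 0.06 (adjusted p = 0.995 and 0.847 over all probe sets).

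Of the effectors, Bak1 was measured by 2 probe sets and showed no difference beyond the spread. On 1418991_at, WT1 to WT5 read 8.77, 8.47, 8.44, 8.92 and 8.54, and KO1 to KO4 read 8.65, 8.29, 8.68 and 9.25. KO2 was below and KO4 above all wildtype arrays. The difference was 0.11 (log2, SE 0.28, 95% interval -0.52 to 0.75, adjusted p = 0.808 by limma), and that of the second probe set was -0.10 (adjusted p = 0.787 over all probe sets).

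Taking the genes by their probe set of highest level, 5 of 9 had groups that did not overlap, 3 with knockout above and 2 with knockout below, beside 35.0% of all genes, 22.2% with knockout above and 12.7% below. Over the 29 probe sets, 9 were without overlap, 5 above and 4 below, beside 32.1% of all probe sets. KO4, whose levels had the widest interquartile range (4.29), was the highest knockout array for Bcl2l1, Pmaip1, Bad, Bid, Bak1, Bbc3 and Mcl1 and the lowest for Bcl2l11. The part of this range in those values was not tested beyond the further quantile normalization, under which Pmaip1 (1.63) and Bcl2l1 (0.86) remained called and Bak1 turned to -0.16.

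Of the 9 genes, 7 had the same sign in both batches that hold both genotypes, beside 65.3% of all genes. The exceptions were Mcl1 (-0.05 in batch 1 and 0.09 in batch 2) and Bak1 (-0.12 and 0.27). The called genes Pmaip1 and Bcl2l1 differed more in batch 1, which has 1 array of each genotype and no replicate check, and Bad differed more in batch 2. Whether the difference of a gene varied by batch was not tested.

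**Figure D3:**
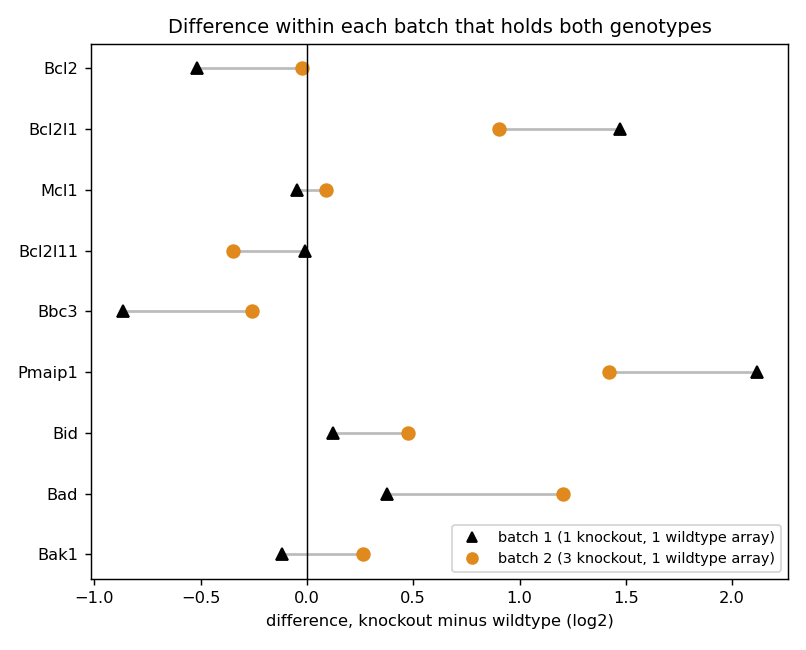
For each of the 9 genes, the horizontal axis gives the difference (log2, knockout minus wildtype) within batch 1 (triangles) and within batch 2 (circles, mean of 3 knockout arrays minus 1 wildtype array), with a grey line joining them. Pmaip1 (2.12 and 1.42) and Bcl2l1 (1.47 and 0.90) lie right of 0 in both batches, and Mcl1 and Bak1 lie on both sides of it.

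Beside the members, the rest of the death pathways was described by 5 lists of genes, chosen with earlier results of these data known. Of 15 other BCL2 family genes, 9 were tested and 0 were called by limma, with 1 at an unadjusted p under 0.05 and a median difference of 0.18. Probe sets for Bcl2a1a, Bcl2a1b, Bcl2a1d and Bnip3l named several genes, and Bcl2l10 and Bcl2l15 lay under the filter on low levels. These counts stand beside 11.3% of all genes called, 30.8% at an unadjusted p under 0.05, and a median of 0.11.

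Downstream of the mitochondria, 3 of 15 tested genes of the apoptosome, the caspases and their inhibitors rose and 0 fell, with a median of 0.43. Apaf1, the scaffold of the apoptosome, rose from 9.45 ± 0.08 (log2, mean ± SD, n = 5) to 10.50 ± 0.21 (n = 4), a difference of 1.08 (SE 0.18, adjusted p = 0.0105 by limma). Birc5, which encodes survivin, a protein of mitosis as well as an inhibitor of caspases, rose by 1.25 (log2; adjusted p = 0.0139), and the executioner caspase gene Casp6 by 1.24 (adjusted p = 0.035). Birc5 kept its call in each of the 9 fits without 1 array. The call of Apaf1 ended without WT2 (0.99, adjusted p = 0.097), and that of Casp6 ended without WT2 (0.85, adjusted p = 0.412), and also without any 1 of WT3, WT4, WT5, KO3 and KO4 (differences 1.09 to 1.24, with adjusted p between 0.0515 and 0.0647).

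Of 10 death receptor genes, 2 fell and 0 rose, with a median of -0.24. Fasl, which encodes the ligand of the death receptor Fas and is made by cytotoxic lymphocytes, fell from 11.24 ± 0.20 (log2, mean ± SD, n = 5) to 9.84 ± 0.36 (n = 4), a difference of -1.38 (SE 0.27, adjusted p = 0.0167 by limma), and Tnfrsf10b, the mouse receptor for TRAIL, by 0.71 on the log2 scale (-0.71, adjusted p = 0.0452). The call of Fasl ended without WT1 or KO1 (-0.99, adjusted p = 0.0571 and 0.0567), and that of Tnfrsf10b without any 1 of the 9 arrays (-0.76 to -0.64, adjusted p 0.0551 to 0.338) and after a further quantile normalization (-0.62, adjusted p = 0.0757).

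Of 13 genes of the p53 pathway, 1 rose and 1 fell, with a median of 0.06. Zmat3, a p53 target that encodes an RNA-binding protein, had a difference of 0.59 (adjusted p = 0.0451 by limma), and Sesn2, a stress-induced sestrin, of -0.69 (adjusted p = 0.0394). The call of Zmat3 ended without any 1 of the 9 arrays (0.43 to 0.70, adjusted p 0.0574 to 0.462) and after a further quantile normalization (0.33, adjusted p = 0.205). That of Sesn2 ended without WT2, WT3, WT4, WT5, KO2, KO3 or KO4 (-0.71 to -0.39, adjusted p 0.0524 to 0.54) and after each array was centred on its median (-0.66, adjusted p = 0.0535). Trp53 itself is not analysed here.

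Of 12 genes of survival cytokine signalling, which in T cells feeds into Bcl2 and Mcl1, 1 fell and 0 rose, with a median of -0.13. The gene that fell was Il2rb, which encodes a chain of cytokine receptors on T and NK cells, from 12.19 ± 0.15 (log2, mean ± SD, n = 5) to 11.17 ± 0.26 (n = 4), a difference of -1.01 (SE 0.21, adjusted p = 0.0231 by limma). With WT1, KO1 or KO3 left out its call ended (differences -0.99 to -0.76, with adjusted p between 0.0523 and 0.0802). Without the 3 wildtype arrays of batch 3, the 8 calls in these lists all ended.

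**Figure D4:**
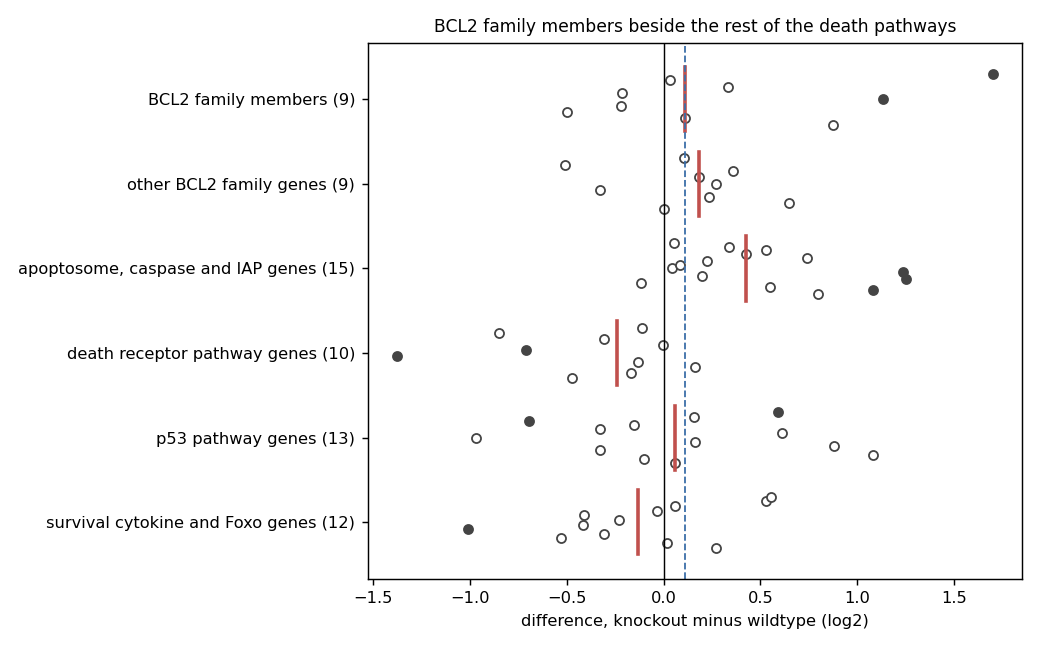
Each point is the difference (log2, knockout minus wildtype) of 1 gene, in rows by list with the number of genes tested, filled where the adjusted p is under 0.05. The red bar is the median of the list and the dashed blue line the median of all genes tested (0.11), on which the median of the BCL2 family members (0.11) lies, while that of the apoptosome list is 0.43 and that of the death receptor list -0.24.

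Markers of other cells and of dividing cells moved with genotype on the same arrays. The marker and mitosis lists were chosen with earlier results of these data known, so their counts are a description only. Those counts, here and for the iNKT list, stand beside 11.3% of all genes called, 7.88% higher and 3.37% lower. Of 10 double-positive thymocyte markers tested, 8 rose and 0 fell (median difference 1.53), and the median level of the list ran from 9.22 to 9.87 (log2) on wildtype arrays and from 10.94 to 11.90 on knockout arrays. Arpp21 (2.24), Ptcra (2.17) and Mns1 (2.86) had the smallest p. Of 10 macrophage and dendritic cell markers, 4 rose and 0 fell (median 1.41), with list levels of 4.94 to 5.76 against 6.65 to 7.86, and of 7 B cell markers 2 rose and 0 fell (median 1.18), with levels of 6.35 to 7.13 against 7.41 to 8.52. The B cell differences were positive for 5 genes and negative for 2, Pax5 (-0.17, adjusted p = 0.597 by limma) and Ebf1 (-0.05, adjusted p = 0.954). All 10 macrophage and dendritic cell differences were positive, the smallest that of Adgre1 (0.35, adjusted p = 0.662). Of 9 mitosis genes, 9 rose (median 1.88), with levels of 8.39 to 8.85 against 10.40 to 11.02. Of 4 thymic epithelial markers 0 were called by limma, 0 of them with an unadjusted p under 0.05 (5.396 to 5.66 against 5.52 to 5.62). Among defining markers, Itgam and Cd14 of the macrophage list and Krt14 and Psmb11 of the epithelial list lay under the filter on low levels.

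Of the 12 iNKT and T cell markers, which had list levels of 11.70 to 11.81 on wildtype and 11.004 to 11.29 on knockout arrays, 3 fell (Cd44, Tbx21 and Il2rb, which is also in the cytokine list) and 0 rose. Zbtb16, which encodes the defining factor PLZF, differed by -0.22 (adjusted p = 0.51 by limma), and the T cell receptor chain gene Cd3e by -0.003 (adjusted p = 0.993). KO2 was the knockout array nearest to wildtype for Bcl2l1 and Pmaip1 and for the double-positive, macrophage, mitosis and iNKT lists, while KO4 was nearest for the B cell list. KO2 was also nearest on the axis of largest variance over all genes tested (first principal component, 65.5% of the variance). There KO2 scored 21.2, KO1, KO3 and KO4 scored 41.8, 50.7 and 57.4, and wildtype arrays scored -39.8 to -29.9. The place of KO2 is thus not particular to these genes and lists. The part of these cell types and of cell division in the values of Pmaip1, Bcl2l1, Apaf1, Birc5 and Casp6 was not tested.

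**Figure D5:**
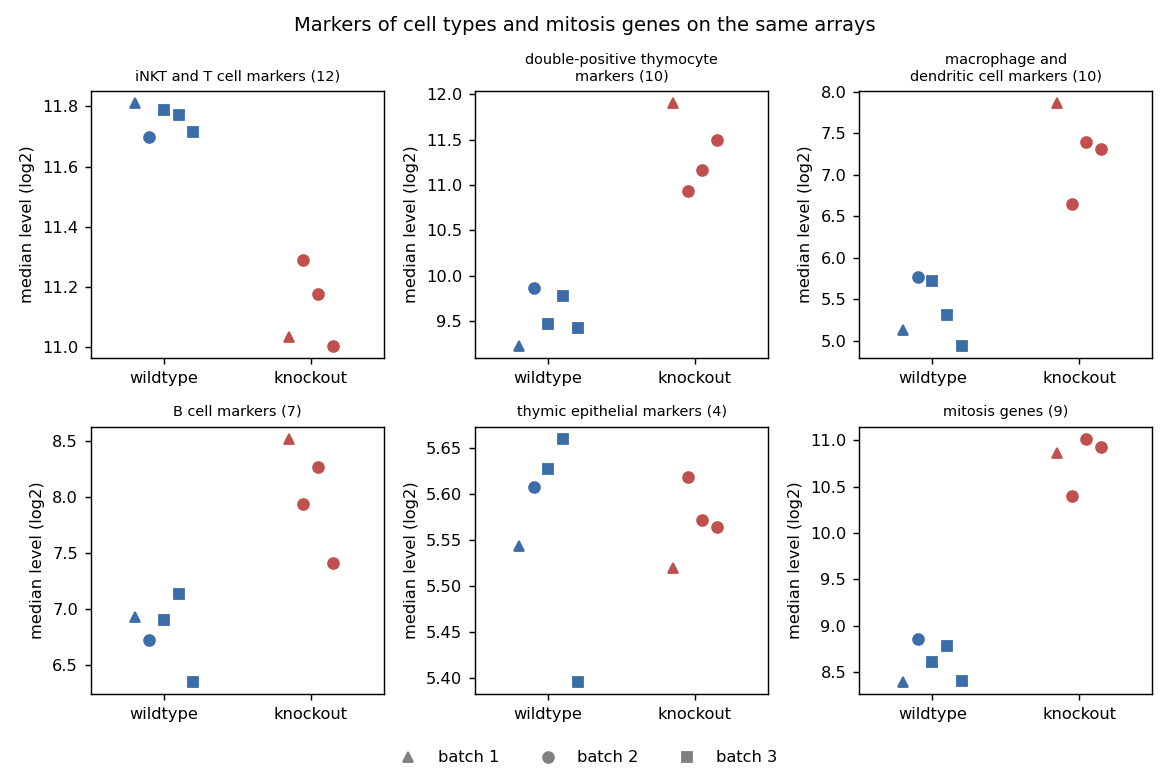
Each panel plots the median level (log2) of 1 marker list on each of the 5 wildtype (blue) and 4 knockout (red) arrays, with the number of genes tested in brackets and the marker shape giving the batch. The double-positive thymocyte list lies between 9.22 and 9.87 in wildtype and between 10.94 and 11.90 in knockout arrays, and the epithelial list overlaps between the groups.

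The genes whose levels followed Pmaip1, the member of smallest p, most closely over the 9 arrays were Dapk1 (Pearson's r = 0.992), Brpf3 (0.991), Ptprs (0.989), Egr1 (0.989) and Hmgcs1 (0.989), after the mean of each batch was removed. These 9 points share genotype, so the order of genes by r is a description only. Dapk1, which encodes a death-associated kinase, rose by 2.84 (log2; adjusted p = 0.00607 by limma), while the early response gene Egr1 had a difference of 0.19 (adjusted p = 0.388).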

How the data were processed

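Total RNA of sorted cells was amplified and biotin labelled, per the labels' protocols, and hybridised to 1-colour arrays. The authors deposited log2 values made by RMA, per the submitters' processing notes (no version named). RMA corrects background, quantile-normalizes and summarises probes. In the deposited values the interquartile ranges still differed, 3.45 to 3.84 on wildtype and 3.80 to 4.29 on knockout arrays. The notes do not say whether a batch step followed. Probe sets were named through the platform annotation: of 45101, 34945 had 1 gene symbol, 932 several and 9160 none. The 64 controls were left out.

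Groups and batches came from the sample titles. A gene was represented by its one-gene probe set of highest mean, and kept if that mean passed a filter on low levels (4.54, log2, the 25th percentile over probe sets). limma 3.58.1 in R 4.3.3 (lmFit, eBayes) fitted genotype and batch as fixed factors on all 9 arrays, with 5 residual and 3.50 prior degrees of freedom. The wildtype arrays of batch 3 entered the estimate of the spread and not the genotype difference. Tests were two-sided, with Benjamini-Hochberg adjustment over 14524 genes, or over 45037 probe sets. In data simulated on 14524 genes for knockout against wildtype, 2.99% of 1.5-fold, 34.3% of 2-fold and 74.2% of 4-fold changes were recovered, with 3 false calls of 77. The simulation changed 67, 67 and 66 genes, fewer than the 1634 called in the data, and the adjusted p depends on that share. Recovery in the data can therefore differ. No 2 arrays of a group were duplicates (smallest SD of their difference 0.30, log2).

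The members and gene lists were chosen with earlier results of these data known. Named genes were all members, the called genes of each pathway list (at most 5 by p), at most 3 of each marker list by p, the 5 most like the member of smallest p, and Kdm6a. Some further markers were named whatever their p. Promoter windows came from RefSeq (GRCm38.p6). Alternatives covered the batch term, filter, normalization, probe set summary, weights and left-out arrays.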

Additional observations from a re-analysis of the deposited data

Results flagged for a closer look

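On probe set 1440770_at of Bcl2, the knockout array KO4 read 8.45 (log2) and lay far from the other 3 knockout arrays, which ran from 8.84 to 8.88. The gap was 0.914 of the range of the group, above the limit of Dixon's test for 4 samples. It was the only such array among 58 groups of values looked at, and chance gives about 1 in 20 groups.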

How the results depend on the processing

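Pmaip1 was called under 20 of 21 alternatives (1.42 to 2.12, log2) and Bcl2l1 under 16 of 21 (0.72 to 1.47). Several of these alternatives share an estimate, so the counts are not of independent checks. Leaving out WT3, WT4 or WT5 gave the main differences again (1.70 for Pmaip1 and 1.13 for Bcl2l1). The fits without WT1, without KO1 and without the batch 1 pair also gave the same values (1.42 and 0.90). Of 9 members, 2 were called, both higher, against 5 with no batch term (3 higher, 2 lower), 7 with batch as a random block (4 higher, 3 lower; consensus correlation -0.32), 1 for the mean of probe sets, 0 without the 3 wildtype arrays of batch 3, 1 without the pair of batch 1 and 1 to 2 with any 1 array left out. Of 29 probe sets, 2 were called (6.40% of all probe sets), against 10 with no batch term and 18 with the random block. The share over all probe sets was not counted under these settings, under which 43.7% and 69.2% of all genes were called. Of the 29, 1 was called after quantile normalization, 0 with array weights, 0 without the batch 3 arrays and 1 without the batch 1 pair. At an unadjusted p under 0.05, 6 passed (28.2% of all probe sets pass it), and 1 to 2 were called with 1 array left out. Of all genes 1634 were called, against 6342 with no batch term, 10045 with the random block, 534 with array weights, 339 without the batch 3 arrays, 3033 at an adjusted p under 0.1, 4470 at an unadjusted p under 0.05 and 851 to 2062 with 1 array left out. The pathway lists held 8 calls, against 25, 42, 3, 0, 14 and 19 in the same order, 5 without the batch 1 pair and 3 to 8 with 1 array left out. The marker and mitosis lists held 26 calls, against 41 with the random block, 17 with array weights, 14 without the batch 3 arrays and 19 to 27 with 1 array left out. The higher share of calls was 70.0%, against 58.2% after quantile normalization, 56.7% without WT2 and 82.0% without the batch 3 arrays. The causes of these shifts were not tested.

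Replicate numbers were not treated as pairs, since the labels do not say so. Deviations of same-numbered arrays correlated by -0.92, 0.09, 0.02 and 0.15. WT1 and KO1, which gave -0.92, are also the only arrays of batch 1, so this value cannot tell pairing from batch. Its cause was not tested. With the replicate number as a block in place of batch, 4290 genes, 4 members (Bad and Bbc3 added), 6 member probe sets and 20 pathway genes were called, and 1 of 4 knockout arrays correlated best with its own number.

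Signs turned only for genes with no call: Mcl1 for the mean of probe sets (-0.00016) and without WT2 (-0.0466 to 0.0896 over the left-out arrays), Bcl2l11 for the mean of probe sets (0.29), Bak1 after quantile normalization (-0.16), without WT2 and without KO4 (-0.118 to 0.265), and Kdm6a after median centring (0.0251), with array weights (0.0223), without WT2 and without KO2 (-0.0665 to 0.0765). With 1 wildtype array in each of batches 1 and 2, leaving one out rests the comparison on the other. Signal over background is not analysed here, so dim probe sets have no detection limit.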
